A study of Mus musculus with 3 samples.

Results

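The nuclei described here are those of spinal motor neurons, which made up 67 of the 14662 nuclei (0.457%) sequenced from the lumbar spinal cords of 12 mice. They were chosen by the refined cell type that the authors deposited for each nucleus, in which they are named motor neurons. Of the 67 nuclei, 66 lay in cluster 49 and 1 in cluster 6 of the deposited clustering. Each of the 12 mice contributed between 1 and 11 of them. WT mice gave 44 nuclei and SOD1G93A mice gave 23.

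The study asked how each cell type of the lumbar cord differs between SOD1G93A and WT mice at 90 days of age. There were 4 groups of 3 mice each. Mice of either sex of the strain B6.Cg-Tg(SOD1*G93A)1Gur/J are called SOD1G93A, and their C57BL/6J littermates without the transgene are called WT. The transgene is a human SOD1 gene with a mutation found in familial ALS. It is present at a high copy number, which was checked in each mouse, and is driven by the human SOD1 promoter, so it is not limited to motor neurons. Hashtag antibodies marked the nuclei of each mouse, and 4 mice, with every combination of sex and genotype once, were run together as pool A, B or C. A SOD1G93A mouse and the WT mouse that shares its sex and pool form a pair, and the 6 pairs are used below to count directions.

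Motor neurons of the ventral horn and lateral column are the only spinal neurons whose axons leave the cord to drive effectors outside it. They release acetylcholine and are divided by target. Alpha motor neurons contract the working fibers of skeletal muscle, gamma motor neurons set the tension of the muscle spindle, and visceral motor neurons of the autonomic column drive peripheral ganglia. Motor neurons are the cells that are lost in ALS, in which fast alpha motor neurons degenerate early and gamma motor neurons are relatively spared.

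The depth of a nucleus sets which genes can be seen in it. Motor neuron nuclei held between 12003 and 179390 unique molecular identifiers (UMIs, each a captured RNA molecule), with a median of 53245, and a median of 7276 genes. Summed per mouse they came to between 27658 and 651446 UMIs. The lowest total was that of the female SOD1G93A mouse of pool C, which has 1 nucleus and in which 1 UMI equals 36.2 CPM (the UMIs of a gene scaled to a common library total). The median UMIs per nucleus of a mouse were 45971 ± 20597 in WT and 56652 ± 24254 in SOD1G93A mice (mean ± SD, n = 6 each), a difference that an exact two-sided permutation test within the 6 pairs did not separate from 0 (p = 0.625, where 0.03125 is the smallest p the 64 arrangements allow). In the whole series 15 barcodes occurred in several libraries, and none of these belonged to a motor neuron nucleus.

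The markers of the study were read in the labelled nuclei. Since the authors named clusters by marker genes, their presence is no independent test of the label. Slit3, a secreted axon guidance ligand, had UMIs in 67 of 67 nuclei. Chat, the enzyme that makes acetylcholine, had UMIs in 64 of 67, and Prph, an intermediate filament of neurons with peripheral axons, in 57 of 67. After each nucleus was thinned to 10000 UMIs, Chat was seen in 76.1% of motor neuron nuclei (exact 95% binomial interval 64.1 to 85.7). It was seen in 2.66% of 5786 other neurons and in 0.473% of 423 oligodendrocytes, which should lack it. Whether the share in oligodendrocytes comes from free RNA or from doublets was not tested. Shallower nuclei were left out of the thinned sets, which kept 67 of 67 motor neurons, 5786 of 8800 other neurons and 423 of 2165 oligodendrocytes. The oligodendrocytes kept are thus the deepest of their type. The median depth of all nuclei before thinning was 12864.5 UMIs in other neurons and 5786 in oligodendrocytes. Slc5a7, the transporter that brings choline back into the terminal, was seen in 79.1%, 5.29% and 4.49% of the same sets. These intervals cover counting error only.

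The authors' mapping to a reference of spinal neurons placed 61 of the 67 nuclei in its class VC_2 and 6 elsewhere, of which 3 were mapped to unnamed neurons, 2 to MI_3 and 1 to VI_5. The 6 nuclei came from 4 male mice, and 3 of them from the male SOD1G93A mouse of pool C. Their summed level of Chat was 76.7 CPM, against 164 CPM in the 61 mapped to VC_2. Together they also carried more RNA of the oligodendrocyte gene Mbp (412 CPM, against 105 CPM in the 61) and of Zeb2 (327 against 72.6 CPM), although 1 of the 6 had 0 Mbp UMIs. The deepest nucleus of all, a WT nucleus of 179390 UMIs, is among these 6 and held 14 Chat UMIs beside 102 of Mbp and 71 of Zeb2. The genes called by genotype are also described without these 6 nuclei.

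In WT mice, motor neurons were set apart from other neurons by a small group of genes with large differences. For each mouse the CPM of the summed motor neuron nuclei was divided by that of the other neurons (8800 nuclei in all mice, with 5 CPM added to each), and the log2 ratio was averaged over the 6 WT mice. Of 7207 genes with at least 30 UMIs in WT motor neurons, 83 (1.15%) were higher in 6 of 6 mice with a mean log2 ratio of at least 2, and 72 of them are protein coding. The nuclei were clustered on these genes, so the values are a description and no test was run. The median log2 ratio over the 7207 genes was -0.14.

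The gene that stood highest was Tns1, tensin 1, which links actin filaments to adhesion sites. Its level in the 6 WT mice was 184 CPM at the lowest, 345 at the median and 570 at the highest in motor neurons, against 3.82, 4.84 and 6.78 CPM in other neurons (log2 ratio 5.09 ± 0.59, mean ± SD, n = 6). Pdgfd, a growth factor of the PDGF family, followed with 451, 637 and 751 CPM against 12.8, 16.3 and 21.0 CPM (log2 ratio 4.88 ± 0.30). In neither gene did the ranges of the cell types come near each other. Tns1 RNA was found in 44 of 44 WT motor neuron nuclei and Pdgfd RNA in 38.

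Genes of the cholinergic terminal were also among the 25 highest. Chat stood at 78.1, 164 and 274 CPM in motor neurons and at 1.15, 4.63 and 6.15 CPM in other neurons (log2 ratio 4.10 ± 0.78). Slc5a7 stood at 97.7, 169 and 204 CPM against 4.61, 7.41 and 9.11 CPM (3.74 ± 0.31). Of the 7 genes of the cholinergic list, 3 met the rule, the third being Prima1, the membrane anchor of acetylcholinesterase (2.41 ± 0.45). Ache itself, which many other neurons also make, did not differ in a steady direction (-0.32 ± 0.77, higher in 3 of 6 mice).

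Slc18a3, the vesicular acetylcholine transporter, had 0 UMIs in all 14662 nuclei. Its gene (GRCm38 14:32462438-32464850) lies on the minus strand wholly within Chat (14:32408203-32465989, minus strand). Whether reads over both genes were set aside in counting was not tested.

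Other genes among the 25 with the highest ratios were of several kinds. Among proteins of membranes and calcium handling were Itpr3, an inositol trisphosphate receptor (log2 ratio 3.66), Dysf, which seals membrane damage (3.47), Mrvi1, a partner of the inositol trisphosphate receptor (3.43), and Anxa2, a calcium-dependent membrane binder (3.1). Among regulators were the transcription factors Glis3 (3.94) and Creb5 (3.09), the protease Pappa (3.79), the GTPase-activating protein relative Arhgap36 (3.32) and Vipr2, a receptor of the peptides VIP and PACAP (3.32). Among cytoskeletal genes were the actin bundler Lcp1 (3.46), the filamin partner Filip1 (3.16) and Prph (3.18). Chodl, a membrane lectin known from fast motor neurons, reached 4.13, Aox1, an aldehyde oxidase, 4.10, Slit3 3.45 and Prune2 3.30. With them came Gm14697 (4.62), 6030407O03Rik (4.51), Gm39185 (4.27) and Gm10754 (3.14), which have no protein name. Prune2 was the most abundant of the 25 in summed UMIs, at 1513, 1710 and 2235 CPM in the WT mice.

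**Figure D1:**
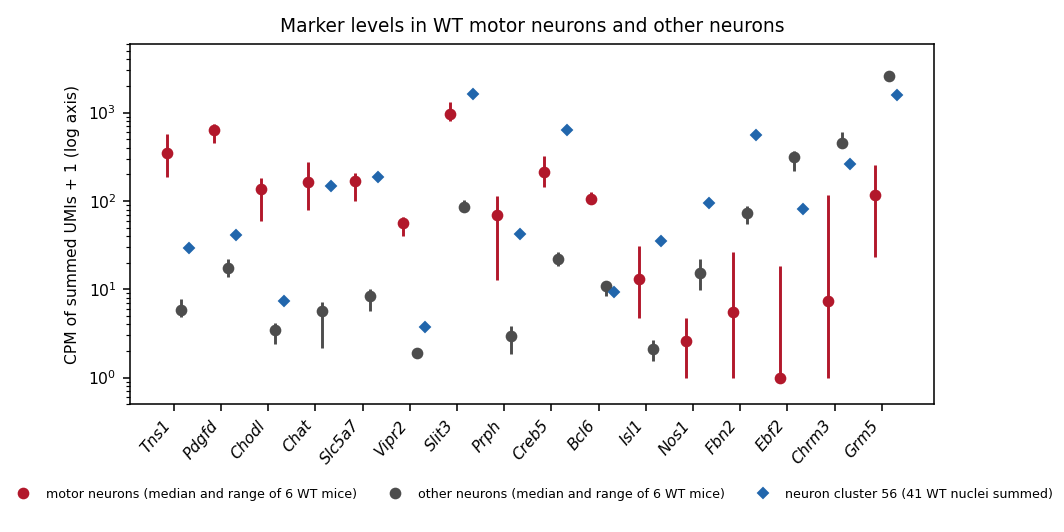
Level of 16 genes in WT mice, as CPM of summed UMIs plus 1 on a log axis. Red and grey points are the medians of 6 WT mice for motor neurons and for other neurons, with lines from the lowest to the highest mouse, and blue diamonds are the 41 WT nuclei of neuron cluster 56 summed. Tns1, Pdgfd, Chodl and Vipr2 lie far higher in motor neurons than in both other sets, Chat and Slc5a7 are also high in cluster 56, and Ebf2, Chrm3 and Grm5 are lower in motor neurons than in both.

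Among genes of at least 100 CPM in other neurons (1743 genes), 90 met the mirrored rule and were lower in motor neurons. Ebf2, a transcription factor of spinal interneurons, had 9 UMIs in the 44 WT nuclei, with 0 CPM at the lowest and at the median mouse and 17.3 CPM at the highest, while other neurons held 217, 312 and 370 CPM (log2 ratio -5.50 ± 0.97). Receptors were among the 15 lowest, with the muscarinic receptor Chrm3 at -5.03, the glutamate receptor Grm5 at -4.56, the neuregulin receptor Erbb4 at -4.28 and the serotonin receptor Htr4 at -3.98. Others were the potassium channel Kcnc2 (-4.28), the AMPA receptor partner Shisa9 (-3.99), the transcription factor Bcl11a (-4.27), the adhesion protein Ntm (-4.03) and the collagen Col25a1 (-4.03). Ankfn1 (-5.00), Tmem163 (-4.42), Plppr1 (-4.06), Mpped2 (-3.98) and Trank1 (-3.98) made up the rest.

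The genes that mark the transmitters of interneurons were low in motor neurons as a list. Of the 9 genes, 8 were lower in 6 of 6 WT mice and the median log2 ratio was -2.71. Of the 7 that reached 10 CPM in motor neurons or in other neurons (mean of the WT mice) all were lower in 6 of 6, beside 24.8% of the 8866 genes at that level. Slc17a6, the vesicular glutamate transporter of spinal neurons, stood at 0, 4.46 and 12.99 CPM in motor neurons against 66.6, 75.1 and 79.4 CPM in other neurons. Gad2, an enzyme of GABA synthesis, stood at 0, 1.61 and 19.5 CPM against 44.4, 45.8 and 49.2 CPM.

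The lists of known motor neuron genes were uneven. Both genes of the skeletal list met the rule, Tns1 and the transcriptional repressor Bcl6 (log2 ratio 2.91 ± 0.25, with UMIs in 42 of 44 WT nuclei). Of 17 transcription factors of motor neuron development, only Lhx4 met it, at 23.8, 38.4 and 52.6 CPM against 1.02, 1.59 and 2.90 CPM in other neurons. Isl1 (12.1 CPM at the median mouse, 30 UMIs in 19 nuclei), Isl2 (11 UMIs in 6 nuclei) and Mnx1 (6 UMIs in 6 nuclei) were sparse, and Pou3f1 and Nkx6-1 had 0 UMIs. Onecut2 (log2 ratio 1.47) and Runx1 (1.12) were higher in 6 of 6 mice below the size the rule asks for. Of the 17 factors 5 were higher and 4 lower in 6 of 6 WT mice. Of the 8 that reached 10 CPM in either set 4 were higher and 0 lower, beside 12.2% and 24.8% of the 8866 genes at that level. At this depth an absence of UMIs in a nucleus does not show that such a factor is absent.

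The lists of genes for the long axon and for signals to and from muscle went both ways. In the axon list 6 of 10 genes were higher and 1 lower in 6 of 6 WT mice, in the list of secreted signals and peptides 6 of 17 were higher and 8 lower, and in the list of trophic receptors 4 of 9 were higher and 2 lower. Among all 8866 genes of at least 10 CPM in either set, 12.2% were higher and 24.8% lower in 6 of 6 mice. Of the list genes at that level, 6 of 9 axon genes were higher and 1 lower, 6 of 13 secreted signals were higher and 5 lower, and 4 of 7 trophic receptors were higher and 1 lower. The neurofilament genes Nefl (log2 ratio 1.25), Nefm (1.73) and Nefh (1.34), the microtubule protein Map1b (1.49) and Stmn2 (1.37) were higher in 6 of 6 WT mice, the neurofilament gene Ina was lower (-1.60), and only Prph of the 10 genes of that list met the full rule. Nrg1, a signal of motor axons to Schwann cells and spindles, was the most abundant gene of any list, at 8950, 11878 and 12994 CPM against 2921, 3128 and 3234 CPM (1.84 ± 0.21). Ret, the receptor of GDNF, met the rule (2.06 ± 0.40), as did the peptide gene Calcb (2.43 ± 1.20). The LIF receptor Lifr (1.75) and the GDNF co-receptor Gfra1 (1.88) were higher in 6 of 6 mice. Scg2 (-2.28) and Penk (-1.96), of the peptides, and the receptor gene Gfra2 (-1.39) were lower in 6 of 6. Of the 5 genes of the C bouton, the large cholinergic synapse on alpha motor neurons, 2 were higher and 1 lower in 6 of 6 mice. Chrm2 (1.11) was among the higher ones and Kcnn2 (-0.37) was the lower one.

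Markers of the visceral class were higher in a cluster of nuclei outside the motor neuron label than in the motor neurons. Its markers Nos1, the neuronal nitric oxide synthase, and Fbn2, a fibrillin, had 7 UMIs in 7 and 58 UMIs in 13 of the 67 nuclei. Cluster 56, which the authors labelled as neurons, holds 52 nuclei with a median of 18243 UMIs (41 WT and 11 SOD1G93A, from 8 mice), of which 51 were mapped to VC_2. Its summed level was 163 CPM for Chat, 199 for Slc5a7 and 1682 for Slit3, beside 154, 218 and 1065 CPM in motor neurons. After thinning, 82.2% of the 45 nuclei that were kept had Chat.

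The 2 sets were apart in the other markers. Cluster 56 stood at 97.9 CPM for Nos1, 589 for Fbn2, 334 for Zeb2, 664 for Creb5 and 348 for Foxp1. The motor neurons stood at 1.78, 14.7, 102, 217 and 108 CPM for these genes. The order was turned for Tns1 (29.6 CPM in cluster 56 against 288 in motor neurons), Bcl6 (9.87 against 106), Chodl (10.6 against 105) and Vipr2 (3.04 against 45.2), while Lhx4 and Mnx1 had 0 UMIs in cluster 56. Of the 25 genes highest in motor neurons, 11 stood in cluster 56 of WT mice at under 0.1 of their motor neuron level. The absence of nuclei of 4 mice from this cluster and its different depth limit what can be said by genotype, and no test was made.

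Within the 67 nuclei, markers of alpha and gamma motor neurons divided the nuclei. The alpha genes Stk32a, a kinase, and Vipr2 and the fast alpha gene Chodl had at most 1 UMI in all in 10 nuclei, and between 3 and 105 UMIs (median 21) in the other 57. The 10 nuclei, 8 WT and 2 SOD1G93A from 7 mice, are shallow, with 12003 to 46651 UMIs. Of the other nuclei 21 had at most 46651 UMIs, and they held between 3 and 32 UMIs of these genes. The limits used for this and the next groups were set after the values were seen, and no test was run.

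The same 10 nuclei were low in one gene and high in others that did not define them. Rbfox3, which encodes the neuronal antigen NeuN that gamma motor neurons carry at low levels, had 0 to 3 UMIs in each, or 57.1 CPM summed, against 287 CPM in the other 57. Esrrg, a nuclear receptor and gamma marker, had 22 to 114 UMIs in each, or 1981 against 542 CPM. Htr1d, a serotonin receptor known from gamma motor neurons, had UMIs in 8 of the 10 nuclei and in 3 of the other 57, and the 10 nuclei held 27 of its 32 UMIs. Chat stood at 216 against 150 CPM and Tns1 at 277 against 289 CPM. The genes of the slow alpha list were also higher in the 10 nuclei. Esrrb stood at 97.8 against 18.7 CPM, Prkcd at 53.0 against 10.3 and Sv2a at 36.7 against 11.6, from 24, 13 and 9 UMIs in the 10 nuclei. Among the 21 other nuclei of like depth, Rbfox3 stood at 368 CPM and Esrrg at 639 CPM.

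These 10 nuclei were not uniform. In 6 of them, from 4 mice, the polarity gene Pard3b had at least 8 UMIs (561 CPM summed), with Creb5 at 1410 CPM, the semaphorin receptor Nrp2 at 569 CPM, Stxbp6, a regulator of exocytosis, at 17.0 CPM and Plch1, a phospholipase C, at 0. In the other 4, from 4 mice, Stxbp6 had at least 15 UMIs (737 CPM) and Plch1 stood at 400 CPM, with Pard3b at 23.5, Nrp2 at 7.84 and Creb5 at 227 CPM. Both sets held WT and SOD1G93A nuclei, 5 and 1 in the first and 3 and 1 in the second. Esrrg was high in both, at 1851 and 2101 CPM.

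Chodl was uneven among the nuclei. In 7 nuclei, 6 of them WT, Esrrg was under 100 CPM, and there Chodl stood at 259 CPM summed, against 74.7 CPM in the other 60, which include the 10 nuclei chosen for few alpha UMIs. In the 17 nuclei with at least 10 Chodl UMIs, Esrrg stood at 368 CPM. Calca, a peptide gene, and Spp1, osteopontin, were concentrated in few nuclei. For each gene 3 nuclei held at least 20 UMIs, which made up 80.4% of the 337 Calca UMIs and 63.9% of the 357 Spp1 UMIs, and all of these nuclei had over 1% mitochondrial UMIs. Mmp9, which marks fast motor neurons that degenerate first, had 14 UMIs in 9 nuclei.

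**Figure D2:**
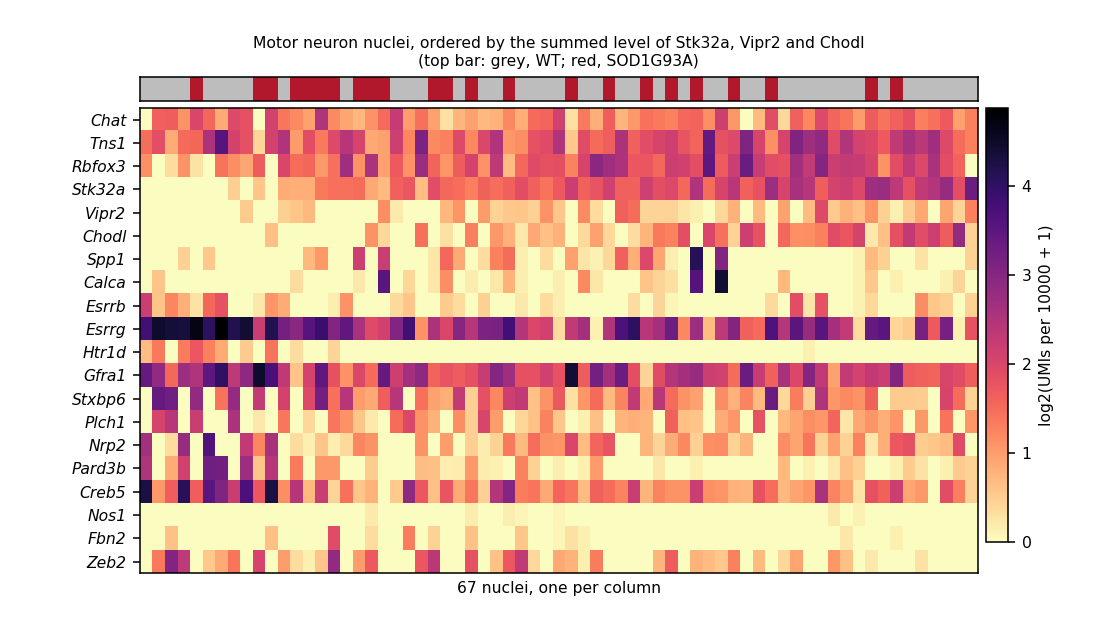
UMIs per 10000 (log2 after adding 1) of 20 genes in each of the 67 motor neuron nuclei, one nucleus per column, ordered from left to right by the summed level of Stk32a, Vipr2 and Chodl. The top bar is grey for WT and red for SOD1G93A nuclei. The 10 nuclei at the left, with at most 1 UMI of the ordering genes, have high Esrrg, most of the Htr1d and little Rbfox3, and Nos1 and Fbn2 are near 0 in most nuclei.

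The genotypes were then compared on UMIs summed per mouse by limma-voom. The model held the 4 groups and the pool, and the contrast was the average of the female and the male effect. At FDR under 0.1, 157 of the 5118 genes tested (3.07%) differed, of which 73 (1.43%) were higher and 84 (1.64%) lower in SOD1G93A mice. The transgene was seen as a rise of Sod1, at 5.58, 14.8 and 41.5 CPM in WT and 72.3, 169 and 768 CPM in SOD1G93A mice, in 6 of 6 pairs (log2 fold change 3.85, SE 0.32, FDR 5.4e-07). Transgene and mouse transcripts were not counted apart. The counts above rest on few nuclei, and without the pool term 40 genes were called, all of them among the 157. In these sums fewer motor neurons of 1 kind and less RNA in each cannot be told apart.

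Of the 58 genes in the 9 identity lists, 33 could be tested, 0 were higher and 1 was lower in SOD1G93A mice at FDR under 0.1 by limma-voom, a share near the 3.07% of all genes tested. At an unadjusted p under 0.05 they numbered 4 higher and 2 lower. The share of all genes tested at that threshold is not given here, so nothing is read from these counts. The median log2 fold change of the 33 genes was 0.15, against 0.00 over all genes tested. The other 25 genes had too few UMIs for the test.

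The gene called was Prima1 (GRCm38 12:103196908-103242150, minus strand), which anchors acetylcholinesterase in the membrane. It stood at 52.1, 83.9 and 97.7 CPM in WT and at 4.82, 23.1 and 62.7 CPM in SOD1G93A mice, from 184 UMIs in 31 of 44 WT nuclei and 33 UMIs in 13 of 23 SOD1G93A nuclei. It was lower in 6 of 6 pairs although the ranges of the genotypes met (log2 fold change -1.77, SE 0.45, FDR 0.0632). It passed the threshold in 9 of the 21 alternative settings, with an FDR between 0.000377 and 0.309. The effect differed from that in other neurons (difference -1.82, FDR 0.0776). WT mice, where Prima1 is high, carried it over the filter on low counts, so nothing is read from its call. Prima1 RNA also stood at 100 CPM in oligodendrocytes and at 131 CPM in cluster 56, beside 55.1 CPM in all motor neurons. The part of oligodendrocyte RNA in its level was not tested.

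For the remaining cholinergic genes no change was called by limma-voom with all nuclei. Chat stood at 78.1, 164 and 274 CPM in WT and 84.5, 138 and 227 CPM in SOD1G93A mice, higher in 3 of 6 pairs (log2 fold change -0.12, SE 0.29, FDR 0.895). Slc5a7 stood at 97.7, 169 and 204 CPM in WT and 145, 260 and 432 CPM in SOD1G93A mice (0.72, SE 0.22, FDR 0.113), and it was higher in 4 of 6 pairs. Slc5a7 was called in 3 of 22 alternative settings, with FDR down to 0.021 when the WT male of pool B was left out. Ache had a log2 fold change of 0.71 (SE 0.34, FDR 0.311).

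The markers of alpha motor neurons did not pass the threshold of limma-voom with all nuclei, and their values pointed both ways. Chodl was lower in 6 of 6 pairs, at 58.6, 136 and 180 CPM in WT and 0, 55.5 and 107 CPM in SOD1G93A mice (log2 fold change -1.09, SE 0.54, FDR 0.353). Vipr2 was lower in 5 of 6 pairs, at 39.1, 55.5 and 65.3 CPM against 5.40, 34.0 and 72.3 CPM (-1.12, SE 0.40, FDR 0.169). Rbfox3 was lower in 6 of 6 pairs, at 184, 314 and 498 CPM against 144, 259 and 362 CPM (-0.46, SE 0.22, FDR 0.321). In each of these genes the ranges of the genotypes overlapped. Stk32a, which marks the same nuclei, gave -0.09 (SE 0.17, FDR 0.854), and Tns1 gave -0.70 (SE 0.33, FDR 0.327). Spp1 and Calca had positive values, of 2.49 (SE 0.89, FDR 0.242) and 1.21 (SE 0.94, FDR 0.606), each higher in 4 of 6 pairs, and the 9 nuclei over 1% mitochondrial held 76.8% and 83.4% of their UMIs. Some of these genes were called under other settings. Chodl was called by DESeq2 (FDR 0.0836) and with no filter on low counts (FDR 0.00273), which also called Vipr2 (FDR 0.0424) and Tns1. Leaving out 1 mouse called Vipr2 (without the SOD1G93A female of pool B) and Tns1 (without the WT male of pool A, FDR 0.0381). Without the WT male of pool B, Spp1 (FDR 6.86e-05) and Calca (FDR 0.00997) were called, and Spp1 was also called with the robust option off.

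The slow alpha, gamma and visceral lists gave 0 calls by limma-voom with all nuclei. None of the 3 slow alpha genes could be tested, and Esrrb, the nuclear receptor of slow motor neurons, had 80 UMIs in 25 of 44 WT nuclei and 13 UMIs in 8 of 23 SOD1G93A nuclei, lower in 6 of 6 pairs. The other members of that list stood at 9.20 CPM in WT and 20.1 CPM in SOD1G93A nuclei (Sv2a) and at 12.4 and 13.9 CPM (Prkcd). Of 9 gamma genes 7 were tested, with log2 fold changes between -1.14 (Pard3b, FDR 0.517) and 0.24 (Esrrg, FDR 0.738). Pard3b was called with no filter on low counts (FDR 0.0445). Zeb2 was the visceral gene tested (0.74, FDR 0.638). Among the developmental factors, Lhx4 (-0.78, FDR 0.508), Foxp1 (0.37, FDR 0.389, higher in 6 of 6 pairs), Onecut2 (0.15, FDR 0.804) and Mecom (-2.13, SE 1.25, FDR 0.468, lower in 5 of 6 pairs) were not called. Mecom was called in 1 of 21 alternative settings (FDR 0.0341, with the WT female of pool B left out). Isl1 with 30 and 33 UMIs in the genotypes was not tested.

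No gene of the axon list was called by limma-voom with all nuclei. With all nuclei its 8 tested genes had positive log2 fold changes, from 0.19 for Mapt to 0.87 for Uchl1, a deubiquitinase of neurons (SE 0.33, FDR 0.195, higher in 5 of 6 pairs). Uchl1 was called in 2 of 21 alternative settings, without the SOD1G93A male of pool B (FDR 0.0317) and without the WT male of pool B, and stood at 0.03 without the nuclei over 1% mitochondrial. Prph stood at 11.9, 68.5 and 113 CPM in WT and 44.3, 110 and 168 CPM in SOD1G93A mice (0.54, SE 0.39, FDR 0.556). Without the 9 nuclei over 1% mitochondrial 6 of the 8 had negative values, namely Nefl (-0.58), Nefh (-0.28), Nefm (-0.24), Prph (-0.13), Stmn2 (-0.11) and Map1b (-0.07), and Mapt turned to -0.04 when the pool B female with the transgene was left out. Those 9 nuclei held 49.4% of the Nefl UMIs. Ret gave 0.78 (SE 0.27, FDR 0.156) and was called with only the nuclei mapped to VC_2 (0.84, FDR 0.0834). In the C bouton list 0 of 4 tested genes were called, with Kcnn2 at -0.60 (FDR 0.114) and Chrm2 at -0.39 (FDR 0.255), both lower in 5 of 6 pairs, and Kcnn3 at 1.03 (FDR 0.239), higher in 5 of 6. Kcnn2 was called in 2 of 22 alternative settings, with FDR down to 0.0541.

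A wider set of motor neuron genes was taken from all 12 mice, namely those that met the rule of the WT comparison in 12 of 12 mice. The SOD1G93A mice enter that rule, so a gene that is low in them can be left out of the set, and its counts by genotype are only a description. Of its 59 genes 0 were called higher and 5 lower by genotype, beside 1.43% higher and 1.64% lower of all genes tested, and nothing is read from the comparison. The 5 were the growth factor gene Pdgfd, the non-coding 6030407O03Rik and Gm39185, Ntng2, a netrin relative that guides axons, and Tesc, a calcium-binding protein. Pdgfd stood at 451, 637 and 751 CPM in WT and 84.5, 254 and 472 CPM in SOD1G93A mice, lower in 6 of 6 pairs with ranges that met (log2 fold change -1.50, SE 0.33, FDR 0.0634). 6030407O03Rik stood at 114, 204 and 314 CPM against 59.1, 85.4 and 232 CPM (-1.13, SE 0.23, FDR 0.0229). Without the pool term none of the 5 was called, with FDR from 0.106 for Pdgfd to 0.317 for Gm39185. None of the 5 was called without the 9 nuclei over 1% mitochondrial either, where their log2 fold changes lay between -1.49 for Pdgfd (FDR 0.333) and -0.79 for Ntng2 (FDR 0.32).

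Of the 14 genes of the axon injury list 6 were tested, and 3 were called higher in SOD1G93A mice (1.43% of all genes tested were). Sox11, a transcription factor of growing axons, stood at 7.52, 18.9 and 30.7 CPM in WT and 0, 53.8 and 144 CPM in SOD1G93A mice, higher in 5 of 6 pairs (log2 fold change 1.45, SE 0.31, FDR 0.0294). Gap43, a growth cone protein, stood at 0, 10.2 and 16.7 against 16.2, 48.2 and 189 CPM (2.66, FDR 0.00937), and Vgf, a secreted peptide precursor, at 0, 10.3 and 20.0 against 11.1, 66.8 and 272 CPM (3.12, FDR 0.00946). The ranges of the genotypes met in all of these genes. Without the pool term Gap43 (FDR 0.106) and Vgf (FDR 0.379) were not called. Genes this sparse in WT mice passed the filter on low counts through the SOD1G93A mice, where they are high, so the count of 3 is no support for a change of the list. The 9 nuclei over 1% mitochondrial held 68.4% of the 237 Vgf UMIs, 42.2% of the 173 Sox11 UMIs and 28.4% of the 134 Gap43 UMIs. With only the nuclei mapped to VC_2 the 3 were called, at 3.42 for Vgf (FDR 0.046), 2.81 for Gap43 (FDR 0.00799) and 1.52 for Sox11 (FDR 0.0329).

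The other injury genes were not called by limma-voom. Ecel1, an endopeptidase of injured neurons, stood at 0, 12.1 and 27.9 CPM in WT and 18.5, 51.1 and 241 CPM in SOD1G93A mice (1.76, SE 0.77, FDR 0.301). It was called in 3 of 20 alternative settings, DESeq2 among them (FDR 0.0491), and 56.3% of its UMIs lay in the 9 nuclei over 1% mitochondrial. Atf3, a transcription factor induced by axon injury, had 1 UMI in WT and 57 UMIs in SOD1G93A nuclei. Jun had 17 and 65 UMIs and was higher in 5 of 6 pairs. In the list of endoplasmic reticulum stress 1 of 8 genes was tested, the chaperone gene Hspa5 (1.23, FDR 0.181), which was called in 1 of 20 alternative settings (FDR 0.0225). Sesn2 (5 and 20 UMIs) and Herpud1 (32 and 42 UMIs) were higher in 6 of 6 pairs without a test.

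The other genes of smallest adjusted p that were higher in SOD1G93A mice were of mixed kinds. They included the actin genes Actg1 (log2 fold change 1.75, FDR 0.0445) and Actb (1.49, FDR 0.0445), whose reads can be shared between near copies. Hsp90aa1, the inducible cytosolic chaperone (1.57, FDR 0.0229), and Pcsk1n, an inhibitor of a prohormone protease (1.48, FDR 0.023), were also called. The rest were the kinase Mapk4 (1.68, FDR 0.0176), the tetraspanin Cd81 (1.24, FDR 0.0445), the cholesterol exporter Abca1 (2.09, FDR 0.0459) and Epb41l4a, of the band 4.1 family (2.43, FDR 0.0459). Each was higher in 5 or 6 of 6 pairs. Without the pool term Mapk4 had an FDR of 0.0685 and the other 7 were not called, with FDR between 0.106 for Actb and 0.193 for Pcsk1n. Without the 9 nuclei over 1% mitochondrial none of the 8 was called. Mapk4 stood at 1.55 (FDR 0.215), Hsp90aa1 at 1.28 (FDR 0.211), Pcsk1n at 0.71 (FDR 0.365), Actb at 0.46 (FDR 0.75) and Cd81 at 0.71 (FDR 0.368), and Actg1, Abca1 and Epb41l4a had too few UMIs for the test. Abca1 lost its call in 8 of 21 settings, edgeR among them. Abca1 stood at 1.68, 14.6 and 30.7 CPM in WT and at 4.29, 83.5 and 241 CPM in SOD1G93A mice. Mapk4, Hsp90aa1, Actb, Cd81, Actg1, Abca1 and Epb41l4a were too low in WT mice to pass the filter on low counts there. These genes passed it through the SOD1G93A mice, where they are high. Nothing is read from their calls.

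Among the lower genes Grip1, a scaffold of AMPA receptors (GRCm38 10:119453830-120087261, plus strand), stood at 3234, 5240.0 and 6144 CPM in WT and at 1775, 2664 and 3105 CPM in SOD1G93A mice, so that every SOD1G93A mouse was below every WT mouse (log2 fold change -1.07, SE 0.18, FDR 0.00929). L3mbtl4, a reader of methylated histones (17:68273797-68780086, plus strand), stood at 323, 465 and 730 against 43.2, 135 and 270 CPM (-1.83, SE 0.29, FDR 0.00929), again without overlap. The antisense gene Grip1os2 (10:119746063-119761699, minus strand) lies within Grip1 and was lower too (-1.24, FDR 0.00929), and reads of the partners cannot be told apart unless strand was used in counting.

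The protein kinase C gene Prkca stood at 160, 259 and 530 CPM in WT and 36.2, 109 and 156 CPM in SOD1G93A mice (-1.34, FDR 0.00929). Its relative Prkcb stood at 258, 391 and 583 against 81.9, 191 and 254 CPM (-1.26, FDR 0.00937), and Pde7b, a cyclic AMP phosphodiesterase, at 442, 483 and 593 against 181, 292 and 334 CPM (-0.93, FDR 0.00937). In these genes too the genotypes did not overlap. Without the pool term Prkcb was not called (FDR 0.106). The genes were picked by their adjusted p, so nothing is read from the lack of overlap. The other named genes, whose ranges overlapped, were Pdzrn4 (-1.16), Csmd3 (-1.01), Ccdc171 (-1.38), Ptchd4 (-1.07), Greb1l (-1.08) and the GATA-type repressor Trps1 (-0.96), with FDR between 0.00929 and 0.00937. Each was lower in 5 or 6 of 6 pairs.

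**Figure D3:**
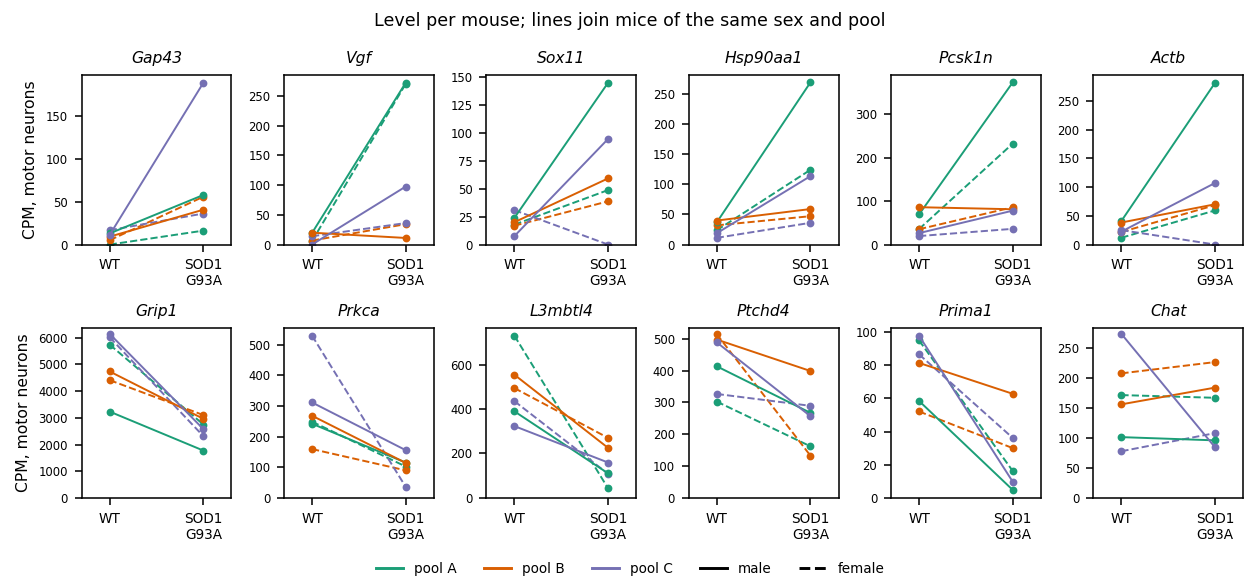
Level in motor neurons (CPM of summed UMIs) of 12 genes in each mouse, with WT at the left and SOD1G93A at the right of each panel. Lines join mice of the same sex and pool, colored by pool, solid for males and dashed for females. Gap43 is higher in 6 of 6 pairs and Sox11 in 5 of 6, Grip1, Prkca, L3mbtl4, Ptchd4 and Prima1 are lower in 6 of 6, and Chat moves in both directions.

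The genes that rose had shorter spans than the genes that fell. The median span of the genes that were higher in SOD1G93A mice was 30.6 kb (72 genes with a span), of those that were lower 237 kb (84 genes) and of all genes tested 69.3 kb. The genes were divided by span into 5 equal groups. Of the shortest group (up to 31.0 kb) 36 were called higher and 3 lower, and of the longest group (from 172 kb) 6 higher and 53 lower. The median log2 fold changes of the 5 groups, from short to long, were 0.16, 0.07, -0.00, -0.03 and -0.16 in motor neurons. In other neurons of the same mice they lay between -0.01 and 0.01. In motor neurons of at most 1% mitochondrial UMIs they ran from 0.11 in the shortest group to -0.11 in the longest. These are values across genes, which are not independent replicates.

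Of all motor neuron UMIs of a mouse, the longest group held 50.7% to 59.4% in WT and 45.1% to 52.7% in SOD1G93A mice, with ranges that met. The shortest group held 7.87% to 13.8% and 10.3% to 13.7%. In other neurons the longest group held 51.1% to 57.9% in WT and 52.6% to 55.3% in SOD1G93A mice.

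**Figure D4:**
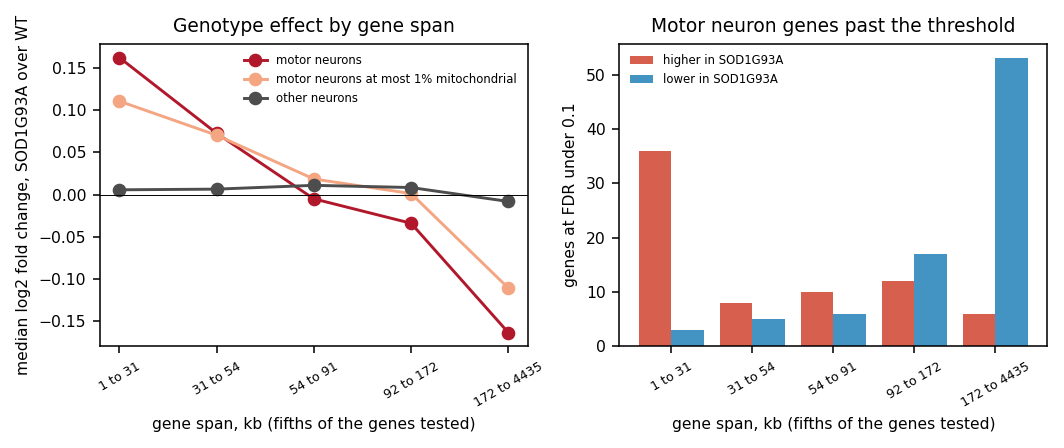
Left, median log2 fold change (SOD1G93A over WT) of the genes tested, in 5 equal groups by the span of the gene in kb, for all motor neurons (red), motor neurons of at most 1% mitochondrial UMIs (orange) and other neurons (grey). Right, number of motor neuron genes at FDR under 0.1 in the same groups, which is 36, 8, 10, 12 and 6 for higher genes and 3, 5, 6, 17 and 53 for lower genes, from short to long.

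The share of mitochondrial UMIs, a sign of RNA quality, was high in a few nuclei, more of them SOD1G93A. Of the 67 nuclei, 9 had over 1% mitochondrial UMIs, which were 6 of 23 SOD1G93A nuclei from 4 mice and 3 of 44 WT nuclei from 2 mice. The summed level of 6 injury genes (Atf3, Jun, Gap43, Sox11, Ecel1 and Vgf) had a median of 8.51 UMIs per 10000 in the 6 SOD1G93A nuclei (3.13 to 39.9) and of 0.479 in the 3 WT nuclei (0.449 to 3.16). In nuclei of at most 1% it had a median of 1.22 in 17 SOD1G93A nuclei (0.319 to 12.2) and of 0.418 in 41 WT nuclei (0 to 3.16). The 6 genes were picked from the list of 14 after their values were seen, and each has more UMIs in SOD1G93A than in WT nuclei, so the order of the genotypes is set by the choice and is no result.

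Atf3 was concentrated in few nuclei. Of its 58 UMIs, 54 (93.1%) lay in 3 nuclei, all from SOD1G93A mice and all over 1% mitochondrial. The deepest in injury RNA was a nucleus of the male SOD1G93A mouse of pool A, with 8.45% mitochondrial UMIs, 19 UMIs of Atf3, 21 of Jun, 43 of Sox11, 68 of Ecel1 and 78 of Vgf beside 4 of Chat. Of the Vgf UMIs 162 of 237 lay in the 9 nuclei over 1% mitochondrial, and of the Sox11 UMIs 73 of 173. Gap43 was spread more widely. Of its 134 UMIs 38 lay in the 9 nuclei, and 50 lay in 2 nuclei of the male SOD1G93A mouse of pool C, which had under 1% mitochondrial UMIs, 0 and 1 Chat UMIs and 94 and 80 UMIs of the adhesion gene Chl1, and 1 of which was mapped to VI_5.

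**Figure D5:**
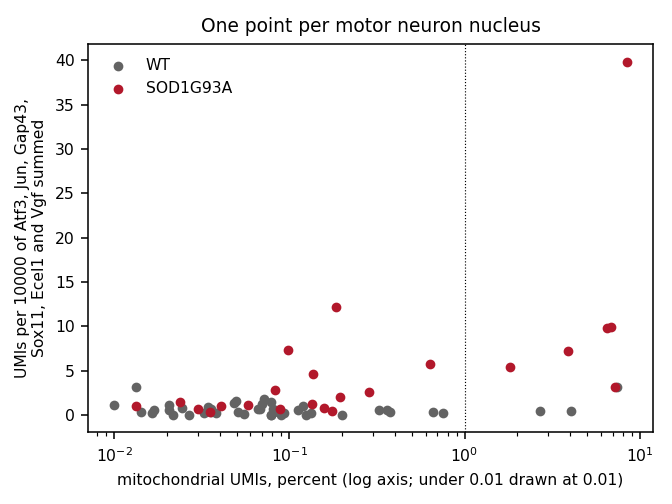
Summed UMIs per 10000 of Atf3, Jun, Gap43, Sox11, Ecel1 and Vgf (vertical axis) against the percent of mitochondrial UMIs (log axis) in each of the 67 motor neuron nuclei, grey for WT and red for SOD1G93A. The dotted line marks 1%. The highest value, 39.9, belongs to a SOD1G93A nucleus at 8.45% mitochondrial UMIs, and nuclei of WT mice do not exceed 3.16 on either side of the line.

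The count of calls was lower without these 9 nuclei. Without them 5 genes were called, namely Sod1, Rmst, Trps1, Ptchd4 and L3mbtl4, of which Rmst was named after its values were seen. Gap43, Vgf and Sox11 had too few UMIs there for a test. The 157 genes were chosen on sums that hold the nuclei kept here, so their signs and unadjusted p are largely set by that choice. Of the 157 genes 139 could be tested, all with the same sign, and all 84 lower genes had an unadjusted p under 0.05 with a median log2 fold change of -0.82, against -0.87 with all nuclei. Of the 73 higher genes 55 could be tested, with a median of 0.84 against 1.03, and 40 had an unadjusted p under 0.05. The higher genes that could not be tested are left out of these counts. With only the nuclei mapped to VC_2, 220 genes were called and shared 139 with the 157. There 71 of the 73 higher genes and all 84 lower genes could be tested, and each kept its sign, with medians of 1.24 and -0.92 against 1.11 and -0.87 for the same genes with all nuclei. The 12 higher and 12 lower genes of smallest adjusted p were called in that set too, with FDR of at most 0.0505 and 0.0162, and Prima1 stood at -1.66 (FDR 0.0791). The nuclei mapped to VC_2 were also part of the sums on which the genes were chosen. The kept signs and calls are therefore no independent test of the effects. The part of mitochondrial RNA in the calls was not tested.

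Markers of other cell types were measured in the same sums. Mbp, a myelin gene of oligodendrocytes, stood at 26.3, 98.1 and 284 CPM in WT and at 30.0, 187 and 262 CPM in SOD1G93A motor neurons, higher in 3 of 6 pairs (log2 fold change 0.17, SE 0.47, FDR 0.912), beside 2831 CPM in oligodendrocytes themselves. The microglial markers came to 0, 12.1 and 26.0 CPM against 7.38, 19.4 and 81.1 CPM, higher in 4 of 6 pairs, beside 74.6 CPM in microglia. The astrocyte markers reached 34.6 CPM in WT and 32.4 CPM in SOD1G93A mice at most, and the endothelial ones 10.8 and 6.503 CPM. The part of these markers in the results was not tested.

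Whether the effects belonged to motor neurons was asked in a fit of both cell types, with the mouse as a block. The genotype effect in motor neurons differed from that in other neurons for 104 of 5118 genes (2.03%), with 37 differences positive and 67 negative. Of genes named above, the difference on the log2 scale was 2.48 for Gap43 (FDR 0.0109), 1.82 for Actg1 (FDR 0.02) and 1.42 for Pcsk1n (FDR 0.0302), whose effects in other neurons alone were 0.08, -0.02 and -0.01. It was -1.65 for Prkca, -1.56 for L3mbtl4 and -1.05 for Trps1 (FDR 0.0109 each), with effects in other neurons of 0.13, -0.15 and 0.13. Lix1 (2.37, FDR 0.0109) and the ubiquitin gene Ubb (1.76, FDR 0.0271) completed the positive side, with Sod1. Without the 9 nuclei over 1% mitochondrial, 1 difference was called, that of Trps1 (-1.03, FDR 0.0698). The difference was -1.61 for Prkca (FDR 0.215) and -1.28 for L3mbtl4 (FDR 0.119) there, near its size with all nuclei. It was 1.08 for Sod1 (FDR 0.31), 1.17 for Ubb (FDR 0.39) and 0.66 for Pcsk1n (FDR 0.539), and Gap43, Actg1 and Lix1 had too few UMIs for the test. Gap43, Actg1 and Lix1 are sparse in WT motor neurons and passed the filter on low counts through the SOD1G93A mice. Nothing is read from their calls. With no filter on low counts the differences of Actg1, Ubb and Pcsk1n were not called.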

How the data were processed

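Single nuclei of lumbar cord were sequenced on the 10x platform in 3 pools of 4 mice. The authors counted UMIs with Cell Ranger 3.1 and STAR 2.5.1b on an mm10 pre-mRNA reference, assigned nuclei to mice by hashtag in Seurat 4.0.3 and removed mitochondrial genes, and the deposited counts are unnormalized. Doublets within a mouse were not marked. The deposited percent values are the share of mitochondrial UMIs of each nucleus. The deposited table of integrated values was not used. Cell types, clusters and mapped classes are those of the authors, and the mouse of a nucleus comes from the deposited tables. The members and the gene lists were chosen with earlier results of these data known.

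Levels are CPM of UMIs summed per mouse. Groups of 6 mice are given as the lowest, the median and the highest mouse. Genotype was tested with limma 3.58.1 (voom, TMMwsp factors of edgeR 4.0.16, filterByExpr with a minimum count of 10, robust eBayes) in R 4.3.3, with Benjamini-Hochberg adjustment over all genes and a threshold of 0.1. Pool is a block, since pools are batches by the labels. The deviations of mice from their group means correlated between -0.08 and 0.26 for pairs of the same pool. For pairs of different pools the range was -0.22 to 0.16. The script was tested on simulated counts. Gene positions are from the GENCODE annotation of GRCm38.

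Genes are named by rule: the 25 highest and 15 lowest ratios of the WT comparison, the 12 genes of smallest adjusted p in each direction that moved alike in at least 5 of 6 pairs, the 6 in each direction for the difference between cell types, and the listed genes. A few genes that the rule or the lists hold are not reported here. Alternatives were edgeR and DESeq2 1.42.0, TMM, other count filters, no robust option, no block, leaving out each mouse, other pseudocounts and other thinning. Leaving out the nuclei over 1% mitochondrial or outside VC_2 was chosen after seeing the data.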

Additional observations from a re-analysis of the deposited data

Results flagged for a closer look

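In 56 groups of 6 mice the highest and the lowest value were set against the others with Dixon's ratio, which chance flags in about 1 group in 20. In SOD1G93A motor neurons, Mapk4, Sox11 and Actb stood at 0 CPM in the female mouse of pool C, which has 1 nucleus, against 48.0 to 141, 38.6 to 144 and 59.4 to 282 CPM in the other 5. In WT motor neurons Grip1os2 stood at 114 CPM in the female mouse of pool C, against 160 to 193 CPM in the others. The median mitochondrial percent of motor neuron nuclei was 0.162 in that WT mouse (others 0.0358 to 0.0785) and 2.03 in the female SOD1G93A mouse of pool A (others 0.0354 to 0.210).

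The genotype effect differed between the sexes for 3 of the 5118 genes tested by the interaction term of limma-voom. The effect in females minus that in males was 2.01 for Frmpd4 (FDR 0.0128), 2.56 for Spint2 (FDR 0.0402) and -4.90 for Klhl1 (FDR 0.0128). The female SOD1G93A mice of pools A, B and C held 2, 4 and 1 motor neuron nuclei. Klhl1 stood at 0 CPM in the mouse of pool C, where 1 UMI equals 36.2 CPM. This term was not fitted under other settings.

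The genotype effect in motor neurons minus that in other neurons was tested in 1 fit. For positive differences it was 2.45 for Sod1, 2.37 for Lix1, 2.48 for Gap43, 1.82 for Actg1, 1.76 for Ubb and 1.42 for Pcsk1n. Lix1, Gap43 and Actg1 passed the filter on low counts through the SOD1G93A mice. For negative differences it was -1.05 for Trps1, -1.65 for Prkca, -1.56 for L3mbtl4, -0.98 for Pdzrn4, -1.01 for Csmd3 and -1.25 for Prkcb.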

How the results depend on the processing

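Of the 103 other settings of the 6 main results, 58 left the result on the same side or within 1.5 times its value and no called direction turned. The settings reuse nuclei on which the genes were chosen, so a kept direction is no independent test. For UMIs per motor neuron nucleus by genotype, whose difference passed no test, leaving out 1 mouse gave -1869.8 to 16186.3 UMIs. The 157 genes called by genotype became 72 with edgeR, 51 with a minimum count of 30, 22 with mice of at least 3 motor neuron nuclei, 457 with no filter, 40 with no replicate block and 5 without nuclei over 1% mitochondrial, and 52 to 260 when 1 mouse was left out. Leaving out 1 mouse of pool C gave 52 (female WT), 61 (male WT), 63 (male SOD1G93A) and 73 (female SOD1G93A), 1 of pool A 70 (female SOD1G93A), 75 (female WT) and 250 (male WT), and 1 of pool B 92 (female SOD1G93A), 243 (female WT) and 260 (male SOD1G93A). The 1 identity gene became 2 with DESeq2 or with the robust option off, 7 with no filter, and 0 with edgeR, with mice of at least 3 nuclei or without nuclei over 1% mitochondrial. It was 0 to 4 when 1 mouse was left out. The 104 differences between the cell types became 31 with a minimum count of 30, 20 with mice of at least 3 nuclei, 40 with no filter and 1 without nuclei over 1% mitochondrial, and 48 to 174 when 1 mouse was left out (in pool C 48 for male WT and 49 for male SOD1G93A, in pool A 69 for female WT and 174 for male WT). The 83 genes higher in WT motor neurons became 132 with a pseudocount of 1 CPM and 32 with 20 CPM. The share of nuclei with Chat became 95.5% with no thinning and 52.2% with thinning to 5000 UMIs. Fewer genes or mice entered the settings that left them out, and otherwise the cause was not tested. The block changed no other main count by over 1.5 times.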
